A study of Homo sapiens with 12 samples.

Results

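CYBA, CYBB, TFEB, LAPTM5, M6PR and CPVL are 6 human genes of the phagocyte oxidase and the lysosome. They were examined through every peak of the deposited table that overlapped their RefSeq gene bodies: 10 of 9958 peaks, 6 named for the METTL1 knockdown and 4 for the control. Overlapping peaks of the 2 sets cover the same reads, so the 10 peaks mark 6 places, 1 in each gene, and no further gene overlapped any of them. The region with the most reads stands for each gene below.

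CYBA and CYBB encode p22phox and gp91phox, the membrane subunits of the NADPH oxidase with which phagocytes make superoxide against engulfed microbes. TFEB is a transcription factor that switches on genes of lysosome formation, LAPTM5 is a lysosomal membrane protein of blood cells, M6PR is a receptor that carries mannose-6-phosphate-tagged enzymes to lysosomes, and CPVL is a serine carboxypeptidase of monocytes and macrophages. The mark measured, m7G (7-methylguanosine), forms the cap at the start of every mRNA and also occurs inside RNAs, where METTL1 with WDR4 is a known methyltransferase.

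The 12 libraries come from THP-1, a human monocytic leukemia line, made adherent with the phorbol ester PMA (100 ng/ml, 48 h) in all groups. Oligo(dT)-selected RNA was profiled by m7G immunoprecipitation sequencing. The groups were KD IP and KD input (short hairpin against METTL1) and NC IP and NC input (control, called wild type in the series design), with 3 libraries each. IP is the immunoprecipitate, and the label IN was taken as its input. The labels do not say whether NC carried a hairpin, whether lines were clones, or whether replicates were separate cultures, so the tests measure the spread between these libraries, which may be technical. No peak overlapped METTL1, so the knockdown itself was not measured here. Reads in peak regions numbered 1513492 to 1888972 per KD IP library, 953727 to 1105477 per KD input, 1476384 to 1676625 per NC IP and 907024 to 1052685 per NC input. Reads outside the listed peaks are not in these totals, so they do not give the sequencing depth.

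The labelled cell type was set against marker lists before the members were compared. These lists were chosen with earlier results of these data known, so they are no independent check. Leukocyte and macrophage markers, summed by list, were read in every library, with 6 of 16 pan-leukocyte genes and 6 of 22 monocyte and macrophage genes having a region. Of these, 5 and 4 had enough reads to be tested. RAC2, ITGAM and LYZ were barely read, such as 1 read in KD input for RAC2 and 1 in NC input for LYZ. The summed level of the 6 leukocyte genes (in CPM, read counts relative to each library's TMM-scaled total) was 1410 to 1530 in KD IP against 635 to 719 in NC IP, and 2000 to 2170 in KD input against 821 to 943 in NC input. The 6 macrophage genes summed to 496 to 539 in KD IP against 316 to 372 in NC IP, and to 549 to 806 in KD input against 418 to 453 in NC input. Genes that mark the HEK293 kidney-derived line or neurons, 12 of 17 with a region, ran the other way, with sums of 870 to 947 in KD IP against 7150 to 8230 in NC IP and of 1200 to 1410 in KD input against 8940 to 9680 in NC input. Most of the KD input sum was NEFH, which was higher in KD (log2 1.12 ± 0.14), and TCEAL9, which was lower (-1.18 ± 0.1). In input, 9 of 10 tested genes of this list, TCEAL9 among them, were called lower, against 21.9% of all 5113 tested regions. The surface epithelium list, 3 of 12 with a region, summed to 6.52 to 9.14 in KD input against 560 to 589 in NC input. Most of the NC input sum was DSP (mean 522 CPM), followed by KRT18 (51.4 CPM). The remaining gene, PPL, did not follow them and was not called in input (log2 0.24 ± 0.8, adjusted p = 0.84). In KD input, LIN28B, MAP1A, MAP9 and KRT18 had no read, while each had reads in NC input. NEFL, LIN28B, IRS4, BEX2, HOXC8, MAP9, KRT18 and DSP each had at most 10 reads in KD IP and 6 in KD input. They passed the filter on low counts through NC, so a difference was built into their being tested. In IP, 8 of the 10 tested HEK293 and neuronal genes were called lower in KD, against 20.1% of all tested regions. MAP1A was not (log2 -0.24 ± 0.67, adjusted p = 0.81), with 23 reads in KD IP and 25 in NC IP. DPYSL3, too weakly read to be tested, ran the other way in input, with 27 reads in KD and 2 in NC. The 6 of 13 fibroblast genes with a region summed to 23.9 to 41.6 in KD IP against 23.3 to 37.8 in NC IP and to 20.1 to 26.4 in KD input against 31.6 to 39.3 in NC input; the only tested one, COL3A1, was not called in either fraction. By their reads, the libraries labelled NC hold, beside leukocyte RNA, transcripts such as those of MAP9, LIN28B and KRT18 that the KD libraries nearly lack. This applies to every KD against NC value below.

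**Figure D1:**
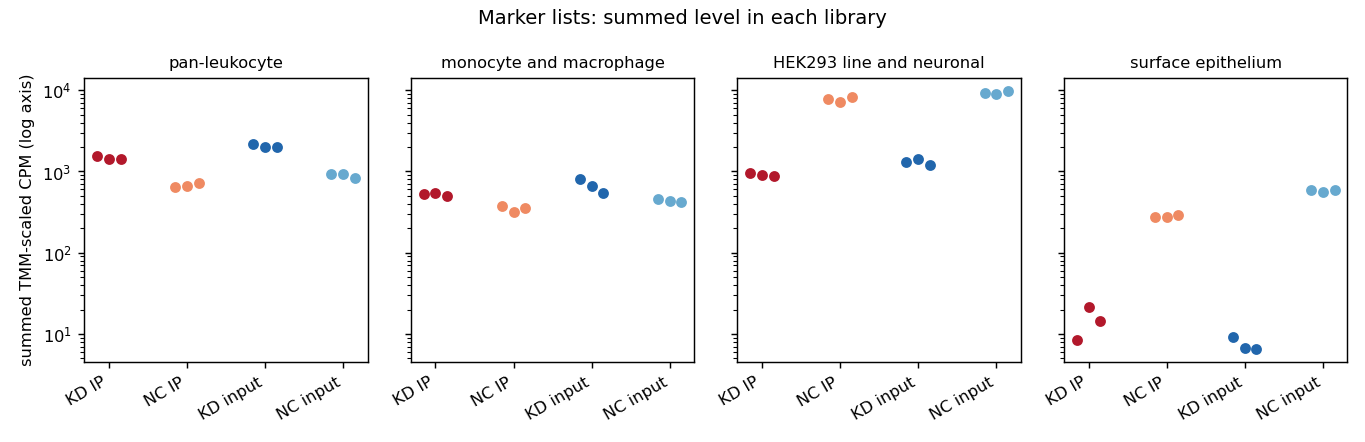
Summed TMM-scaled CPM of 4 marker lists (log axis) in each library, for KD IP, NC IP, KD input and NC input. In input, the pan-leukocyte sum is 2000 to 2170 in KD against 821 to 943 in NC, and the HEK293 and neuronal sum is 1200 to 1410 in KD against 8940 to 9680 in NC.

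In CYBA and M6PR the peaks lay over the annotated gene start, where the cap is formed, so the sequences at these starts are shown first. They are from RefSeq (GRCh38.p14) and run 5′ to 3′ on the gene's strand from 100 bases before to 30 bases after the start. Capitals mark the bases under a peak. The CYBA stretch is chr16:88651024-88651153, minus strand, and the M6PR stretch chr12:8949616-8949745, minus strand.
CYBA: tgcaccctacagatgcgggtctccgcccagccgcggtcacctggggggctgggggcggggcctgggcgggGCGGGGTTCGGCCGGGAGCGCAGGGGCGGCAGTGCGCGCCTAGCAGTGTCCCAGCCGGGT
M6PR: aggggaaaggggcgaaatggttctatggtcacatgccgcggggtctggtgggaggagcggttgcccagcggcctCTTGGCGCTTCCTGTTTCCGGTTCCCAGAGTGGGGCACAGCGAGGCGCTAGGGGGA

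RefSeq windows from 250 bases before to 50 after the start were available for all 6 genes, 11 windows in all. They were searched on both strands for CACGTG, the E-box core that TFEB-type factors bind, and for GAGGAA, a core of sites of the myeloid factor PU.1; the letters of these motifs do not overlap. CACGTG was present in 1 window, at a second annotated M6PR start, and 8.3% of 22198 windows of protein-coding genes hold it. GAGGAA was present in the CYBB window and in 1 of 3 CPVL windows, against 27.9% of all windows. A match is letters only and shows no binding. The 2 lines give the CYBB stretch (chrX:37779959-37780088, plus strand) with GAGGAA, here on the opposite strand, in capitals, and the second M6PR stretch (chr12:8949381-8949510, minus strand) with CACGTG in capitals.
CYBB: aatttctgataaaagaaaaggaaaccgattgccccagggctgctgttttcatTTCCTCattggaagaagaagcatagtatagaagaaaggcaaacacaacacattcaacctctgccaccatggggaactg
M6PR, second start: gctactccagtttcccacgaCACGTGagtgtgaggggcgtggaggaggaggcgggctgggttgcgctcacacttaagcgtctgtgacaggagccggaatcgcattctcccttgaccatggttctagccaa

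CYBA, the p22phox gene, lies on chromosome 16 (88643289 to 88651053, minus strand), and both peak sets gave it the same region of 92 bases, 88650992 to 88651083, which begins 30 bases before the annotated start. Its level was 152, 148 and 178 CPM in KD IP against 132, 128 and 103 in NC IP. In input it was 138, 172 and 142 CPM in KD against 56.6, 73.3 and 78.6 in NC. The KD libraries were all above the NC libraries in both fractions, with a wider gap in input. How many of all regions lay apart in this way was not counted, so it is not read as a trait of the members. Fitted across all regions with edgeR, CYBA was 2.18-fold higher in KD input (log2 1.12 ± 0.18 SE, adjusted p = 2.24e-05), and in IP the difference of log2 0.39 ± 0.16 missed the threshold of 0.05 (adjusted p = 0.0505).

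CYBB, the gp91phox gene, lies on chromosome X (37780059 to 37813461, plus strand). Its region, 37812266 to 37812596, was 331 bases long in the KD set, ended 865 bases before the 3 prime end of the gene, and held the 301-base region of the NC set. Its level was 262, 324 and 395 CPM in KD IP against 161, 137 and 170 in NC IP. In input it was 309, 314 and 409 CPM in KD against 226, 188 and 164 in NC. No KD library overlapped an NC library of the same fraction. CYBB was 2.09-fold higher in KD IP (log2 1.07 ± 0.16, adjusted p = 4.75e-06) and 1.78-fold higher in KD input (0.83 ± 0.16, adjusted p = 0.000233).

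TFEB lies on chromosome 6 (41683978 to 41736223, minus strand) and had a region in the KD set alone, 182 bases at 41691116 to 41691297, 86.2% along the gene body from its 5 prime end. Its level was 59.8, 58.3 and 45.9 CPM in KD IP against 19.6, 19.3 and 26.4 in NC IP. In input it was 107, 84.1 and 78.3 CPM in KD against 37.7, 37.9 and 34.7 in NC. The NC libraries had reads in this region although no NC peak was listed there. TFEB was 2.51-fold higher in KD IP (log2 1.33 ± 0.24, adjusted p = 7e-05) and 2.44-fold higher in KD input (1.29 ± 0.25, adjusted p = 0.000161). As the region was listed from KD alone, a higher level in KD IP may be partly built into its choice.

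LAPTM5 lies on chromosome 1 (30732469 to 30757774, minus strand), with its peaks at the very end of the gene: the NC region, 30732558 to 30732738, ended 89 bases before the 3 prime end and shared 91 bases with the KD region, 30732498 to 30732648. The NC region had 373, 393 and 343 CPM in KD IP against 225, 173 and 246 in NC IP. In input it had 778, 749 and 738 CPM in KD against 391, 421 and 344 in NC. These were the most read regions among the members, and KD and NC did not overlap. The NC region was 1.72-fold higher in KD IP (log2 0.78 ± 0.12, adjusted p = 1.38e-05) and 1.96-fold higher in KD input (0.97 ± 0.12, adjusted p = 7.4e-07). The KD region gave log2 0.81 ± 0.13 in IP and 0.97 ± 0.13 in input, on partly the same bases.

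M6PR, the gene of the cation-dependent mannose 6-phosphate receptor, lies on chromosome 12 (8940361 to 8949645, minus strand). Its KD region of 182 bases, 8949490 to 8949671, covered the annotated start and held the whole NC region of 92 bases, 8949580 to 8949671. The KD region had 8.54, 7.47 and 3.1 CPM in KD IP against 7.43, 3.11 and 3.15 in NC IP. In input it had 31.5, 28.7 and 34.8 CPM in KD against 15.7, 35.4 and 19.6 in NC. KD and NC overlapped in both fractions. The difference was log2 0.47 in IP (95% interval -0.82 to 1.76, adjusted p = 0.538) and 0.43 in input (-0.64 to 1.5, adjusted p = 0.487), so a change as large as that of TFEB was not outside the interval.

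CPVL lies on chromosome 7 (28994636 to 29195451, minus strand). Its region of 61 bases, 29030613 to 29030673, listed in the KD set alone, lay 82.1% along the gene body. It had 3, 5 and 2 reads in KD IP against 2, 3 and 5 in NC IP. In input it had 0, 1 and 0 reads in KD against 26, 21 and 17 in NC. The 3 NC input libraries stood apart, and the other 9 held few reads. In CPM, KD input averaged 0.319 ± 0.552 CPM and NC input 24.5 ± 4.19 CPM (SD, n = 3 each). From the pooled reads, 1 in KD input and 64 in NC input, the ratio of NC over KD was 72.3 (95% counting interval 12.5 to 2900). The log2 of the edgeR fit, -5.83 (adjusted p = 2.08e-05), rests on 1 read in KD input and was -8.06 without KD input replicate 2, which held it. The region passed the filter on low counts through NC input alone, so a difference was built into its being tested. In IP the ratio of KD over NC was 0.925 (counting interval 0.345 to 2.48; adjusted p = 0.914).

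**Figure D2:**
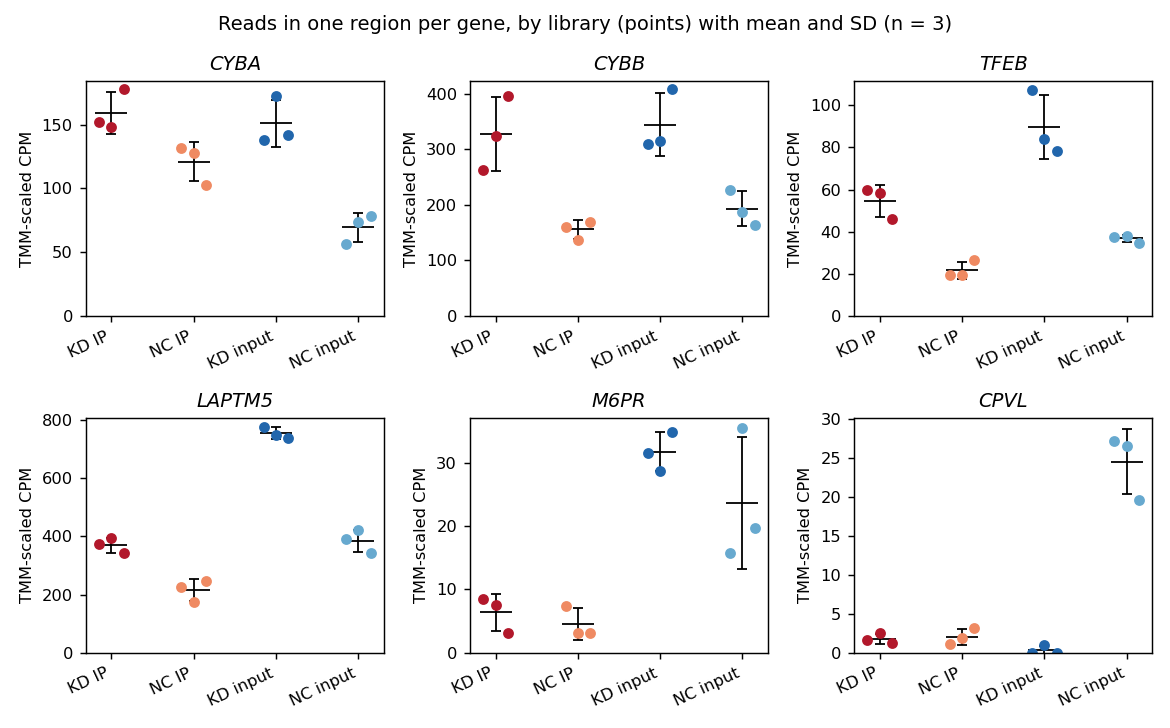
TMM-scaled CPM of the region of each gene with the most reads, by library (points), with the mean and SD of 3 libraries, for KD IP, NC IP, KD input and NC input; each axis starts at 0. KD lies above NC in both fractions in CYBA, CYBB, TFEB and LAPTM5, while CPVL is high in NC input alone, at 24.5 CPM.

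Set side by side, 4 of the 6 genes were called higher in KD input (CYBA, CYBB, TFEB and LAPTM5) and M6PR did not pass. CPVL was called lower, but it was tested only because NC input was high, and nothing is read from its call. Over all 5113 tested regions, 17.9% were called higher and 21.9% lower. The median log2 of the 6 genes was 0.9, and that of all regions -0.01. In IP, 3 genes were called higher (CYBB, TFEB and LAPTM5) and none lower, against 20.9% higher and 20.1% lower over all regions, with medians of 0.62 and 0.05. The TFEB region was listed in the KD set alone, so its difference in IP may be partly built in. By regions, of which 9 of 10 were tested, 7 were higher and 1 lower in KD input, and 5 were higher in KD IP. The narrow M6PR region was too weakly read to be tested. In bulk RNA, fewer cells of a type and less RNA per cell cannot be told apart.

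**Figure D3:**
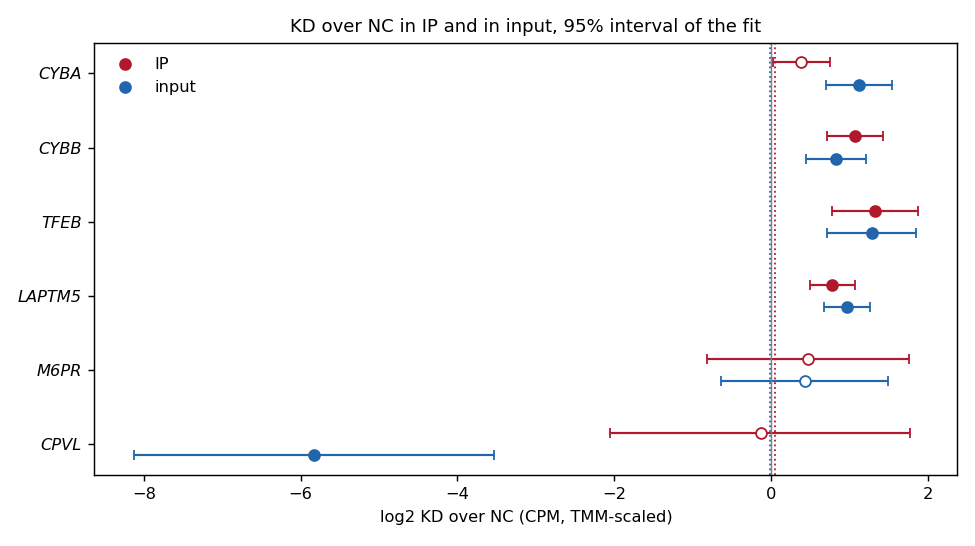
Log2 KD over NC of the region of each gene with the most reads, in IP and in input, with 95% intervals of the edgeR fit; filled points passed an adjusted p of 0.05, and dotted lines are the medians of all tested regions (0.05 in IP, -0.01 in input). CYBA, CYBB, TFEB and LAPTM5 lie between 0.83 and 1.29 in input, and CPVL at -5.83.

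In input, 3 of 5 tested leukocyte genes and 3 of 4 tested macrophage markers were called higher in KD, against 17.9% of all tested regions. In input, ARHGDIB, a GTPase regulator of leukocytes, was 3.02-fold higher in KD (log2 1.59 ± 0.12, adjusted p = 1.8e-10), HCLS1, a substrate of blood cell tyrosine kinases, 2.16-fold (1.11 ± 0.13, adjusted p = 2.4e-07) and ITGB2, an integrin subunit of leukocytes, 1.4-fold (0.49 ± 0.16, adjusted p = 0.016). LSP1 (1.08 ± 0.45, adjusted p = 0.061) and SPI1, which encodes PU.1 (0.51 ± 0.21, adjusted p = 0.06), did not pass. Of the macrophage markers, CD74, CD68 and ITGAX were called higher (log2 1.39, 0.7 and 0.56) and MMP9 missed the threshold (0.41 ± 0.17, adjusted p = 0.054). Among those too weakly read to be tested, RAC2 had 1 read in KD input and 5 in NC input. ITGAM had 4 and 1, and LYZ 8 and 1. In IP, 3 of 5 and 3 of 4 were called higher, against 20.9% of all regions. ITGB2 (0.15 ± 0.16, adjusted p = 0.47), LSP1 and CD68 (0.43 ± 0.24, adjusted p = 0.16) were not.

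Read against the summed reads of the 6 leukocyte genes in the same library, a scaling chosen after seeing the data, the gap between KD and NC in input was close to 0 in TFEB and CYBA. TFEB stood at 4.33 ± 0.523% of that sum in KD input and 4.1 ± 0.116% in NC input (SD, n = 3 each). CYBA stood at 7.34 ± 1.09% in KD and 7.81 ± 1.79% in NC. CYBB stood at 16.8 ± 3.26% in KD and 21.4 ± 2.26% in NC, LAPTM5 at 36.6 ± 0.664% and 42.8 ± 1.99%, and M6PR at 1.54 ± 0.176% and 2.62 ± 1.08%, in the same order of groups. In IP the CYBA share was 10.9 ± 1.46% in KD and 18.1 ± 3.31% in NC. CPVL stood at 0.0158 ± 0.0273% in KD input and 2.71 ± 0.274% in NC input. These are the same few reads on another scale. The region was tested only because NC input was high, so nothing is read from this gap. ARHGDIB and HCLS1 made up 47.5% and 36.9% of the sum in KD input and 36% and 39.2% in NC input, so the scale rests largely on these 2 genes. No test was made on this scale, and the part of the leukocyte, HEK293 and neuronal transcripts in the KD against NC differences was not tested.

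Levels of different genes were compared per kilobase of region. In KD input the order was LAPTM5 (4170 ± 113 CPM per kb), CYBA (1640 ± 201), CYBB (1040 ± 170), TFEB (493 ± 82.2), M6PR (174 ± 16.8) and CPVL (5.22 ± 9.05; SD, n = 3 each), with no overlap between neighbours. In NC input it was LAPTM5 (2130 ± 212), CYBA (755 ± 125), CYBB (583 ± 94.6), CPVL (401 ± 68.7), TFEB (202 ± 9.95) and M6PR (130 ± 57.2), and there CYBA overlapped CYBB and TFEB overlapped M6PR. CPVL ranked last in KD input, on 1 read, and above TFEB and M6PR in NC input. It was tested only because NC input was high, so nothing is read from its rank. A read longer than a short region still counts there, so these levels favour short regions such as that of CPVL.

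IP over input asks how strongly the antibody enriched each region relative to the average peak region. CYBA, read at its start, was the only member called higher in IP, and only in NC. In LAPTM5, TFEB and M6PR the IP level was below the input level in both conditions, and in CPVL it was below in NC. In CYBA the ratio of IP over input CPM for libraries of the same number was 1.1, 0.862 and 1.25 in KD, against 2.33, 1.75 and 1.31 in NC. The fit gave log2 0.08 ± 0.16 in KD (adjusted p = 0.726) and 0.81 ± 0.18 in NC (adjusted p = 0.000685).

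In CYBB, IP and input overlapped in both conditions, with log2 -0.07 ± 0.15 in KD (adjusted p = 0.718) and -0.31 ± 0.17 in NC (adjusted p = 0.127). In LAPTM5 every IP library lay below every input library, with log2 -1.03 ± 0.12 in KD (adjusted p = 2.11e-07) and -0.84 ± 0.13 in NC (adjusted p = 6.41e-06). TFEB had log2 -0.71 ± 0.22 in KD (adjusted p = 0.0113) and -0.76 ± 0.26 in NC (adjusted p = 0.0215). These TFEB calls were fragile. The KD call was lost without KD IP replicate 3 or KD input replicate 1 (log2 -0.59 and -0.61) and the NC call without NC IP replicate 1 or 2 or NC input replicate 1 or 2 (log2 -0.66 to -0.69). With library size alone the NC value was -0.46 (adjusted p = 0.142), and without the filter on low counts the values were -0.6 in KD (adjusted p = 0.0671) and -0.59 in NC (adjusted p = 0.135). With the 6 NC libraries alone the NC value was -0.68 (adjusted p = 0.0765).

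Among the tested regions M6PR had one of the lowest IP over input values, log2 -2.28 ± 0.49 in KD (adjusted p = 5e-04), where 0.3% of all regions were as low, and -2.31 ± 0.53 in NC (adjusted p = 0.000854), where 0.4% were. CPVL was lower in IP in NC (10 reads in NC IP against 64 in NC input, log2 -3.56 ± 0.67, adjusted p = 9.38e-05), but NC input is the group through which it entered the test, so this call does not stand as evidence. In KD it had 10 reads in IP and 1 in input, a ratio of 5.37 with a counting interval of 0.764 to 233 (adjusted p = 0.159). In all, no gene was called higher and 3 lower in KD, and 1 higher and 4 lower in NC (3 without CPVL), among the 6. Over all regions the shares were 23.5% higher and 21.4% lower in KD, and 22.7% higher and 24.0% lower in NC. Medians were -0.39 for the 6 genes and 0.23 for all regions in KD, and -0.8 and 0.13 in NC. With library size alone the median of all regions moved to 0.4 in KD and 0.42 in NC.

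**Figure D4:**
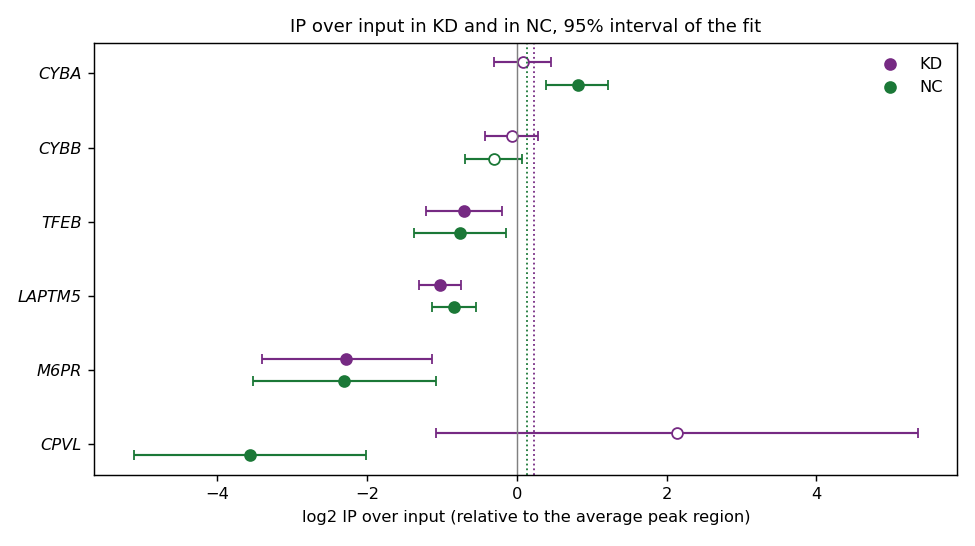
Log2 IP over input of the region of each gene with the most reads, in KD and in NC, with 95% intervals of the edgeR fit; filled points passed an adjusted p of 0.05, and dotted lines are the medians of all tested regions (0.23 in KD, 0.13 in NC). CYBA in NC lies at 0.81, LAPTM5, TFEB and M6PR lie below 0 in both conditions, and the KD value of CPVL has an interval from -1.08 to 5.36.

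Within M6PR the reads divided unevenly between IP and input. The NC region is the outer 92 bases of the KD region, over the start printed above, and the rest of the KD region reaches further into the gene. In KD IP, 6, 7 and 2 reads touched the outer bases, of 16, 15 and 5 reads in the whole region. In KD input, 0, 3 and 0 did, of 31, 30 and 32. In NC IP the outer bases had 6, 2 and 2 reads of 14, 5 and 5, and in NC input 2, 0 and 0 of 15, 28 and 17. The outer share was 41.7% in KD IP (exact Clopper-Pearson 95% interval 25.5 to 59.2) against 3.23% in KD input (0.67 to 9.14). It was 41.7% in NC IP (22.1 to 63.4) against 3.33% in NC input (0.406 to 11.5). The intervals of IP and input did not meet in either condition, and they cover counting error only. The outer bases are the region of an NC peak call, which rests on IP over input in these libraries. In NC a higher outer share in IP is therefore partly built in. Among the reads that stayed off the outer bases, 21 were in KD IP and 90 in KD input, and 14 in NC IP and 58 in NC input. The low IP over input of the whole region therefore came from reads inside the gene, while the outer bases had a ratio of 2.69 in KD (counting interval 0.76 to 14.5) and 2.57 in NC (0.548 to 24.1). Tested without the filter on low counts, the outer region had log2 1.44 ± 1.37 in KD (adjusted p = 0.39) and 1.41 ± 1.53 in NC (adjusted p = 0.46).

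**Figure D5:**
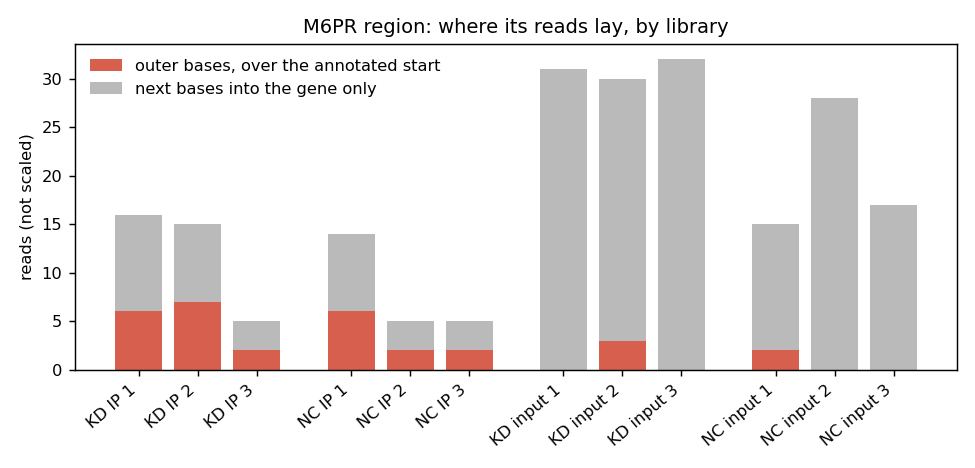
Reads (not scaled) in the M6PR region by library, divided into those that touch the outer 92 bases over the annotated start and those that lie only further inside the gene. The outer bases hold 41.7% of reads in KD IP and in NC IP, against 3.23% in KD input and 3.33% in NC input.

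The change in enrichment compares IP over input between KD and NC, beyond RNA abundance. No member passed, and neither did any region of the table (0% of 5113 tested with edgeR, with 610 at an unadjusted p under 0.05). CPVL had log2 5.7 ± 1.43 (adjusted p = 0.132), a value that rests on the 1 read in KD input, and DESeq2 called it (5.84 ± 1.52, adjusted p = 0.0423) among 21 regions. CYBA had -0.73 ± 0.24 (adjusted p = 0.249), with KD over NC at log2 0.39 in IP and 1.12 in input. CYBB had 0.24 (95% interval -0.28 to 0.76), TFEB 0.05 (-0.75 to 0.84), LAPTM5 -0.19 (-0.59 to 0.21) and M6PR 0.03 (-1.65 to 1.71). The LAPTM5 interval is the narrowest of these, and that of M6PR the widest.

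The authors' deposited table gives its own fold enrichment for each peak call, and these folds differ from the ratios of the counts. In the authors' deposited table CYBA had a fold of 10.6 in the KD set and 6.48 in the NC set, while by counts IP over input was higher in NC. The authors' deposited table lists M6PR at 6.17 in the KD set and 9.82 in the NC set, with adjusted p values of the call of 0.113 and 0.415, and CPVL at 9.87 with 0.405. In the authors' deposited table the folds of CYBB were 2.59 in the KD set and 2.28 in the NC set, that of TFEB was 1.6 in the KD set, and those of LAPTM5 were 1.23 in the KD set and 1.38 in the NC set. For the change between KD and NC, the authors' deposited table calls CPVL alone among the members (log2 5.96, adjusted p = 0.00473) and gives CYBA -0.85 (adjusted p = 0.157). CPVL had 1 read in KD input and 64 in NC input, so this call is no separate evidence and nothing is read from it. The sign of the deposited change was read as KD over NC, as it matches that of the counts in CPVL, CYBA, CYBB and LAPTM5. The small deposited values of TFEB (-0.07) and M6PR (-0.09) have the other sign from the counts (0.05 and 0.03).

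Genes of the same pathways were counted from lists, with 1 region a gene and KD over NC in input. The lists include the members and were chosen with earlier results of these data known, so they are not independent of the members. Over all regions 17.9% were called higher and 21.9% lower, with a median log2 of -0.01. Of the phagocyte oxidase and its partners, only CYBA and CYBB of 9 genes were tested. CYBC1, a chaperone of the oxidase, and RAC2, a GTPase that activates it, had regions with too few reads, such as 1 read in KD input against 5 in NC input for RAC2. None of 8 other NADPH oxidase genes had a region. In lysosome biogenesis control, TFEB alone of 3 tested genes was called (median log2 1.17). RRAGD (1.17 ± 0.81, adjusted p = 0.25) and RRAGC (-0.45 ± 0.65, adjusted p = 0.61), GTPases that bring TFEB and mTORC1 to lysosomes, did not pass.

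Lysosomal membrane genes were called higher in 3 of 5 (median log2 0.64, against 17.9% and -0.01 over all regions): LAPTM5, the tetraspanin CD63 (0.64 ± 0.1, adjusted p = 7e-06) and CD68 (0.7 ± 0.25, adjusted p = 0.03). LAMP2 (-1.24 ± 0.71, adjusted p = 0.17) and LAMP1 (0.22 ± 0.42, adjusted p = 0.71) did not pass. In mannose 6-phosphate sorting, IGF2R, the larger of both receptors for this tag, was called higher (0.61 ± 0.11, adjusted p = 5.6e-05), as 1 of 5 tested (median 0.43), a share near that of all regions. M6PR, AP1S1 (0.25 ± 0.22, adjusted p = 0.39), GGA1 (-0.93 ± 0.67, adjusted p = 0.28) and VPS26A (0.54 ± 0.43, adjusted p = 0.34) did not pass.

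Hydrolases and their cofactors were called higher in 5 of 10 (median log2 0.48), against 17.9% higher and 21.9% lower over all regions (median -0.01). Only CPVL was called lower, but it was tested only because NC input was high, and nothing is read from its call. PPT1, a thioesterase of lipid-modified proteins, had log2 1.29 ± 0.13 (adjusted p = 8.1e-09), and the cathepsins CTSZ, CTSL and CTSB had 0.79 ± 0.14, 0.47 ± 0.13 and 0.67 ± 0.22 (adjusted p = 7e-05, 0.005 and 0.016). The remaining one was CTSD (0.48 ± 0.17, adjusted p = 0.026). Of 4 genes of the vacuolar proton pump, ATP6V1F (0.58 ± 0.11, adjusted p = 0.00016) and ATP6AP1 (0.7 ± 0.28, adjusted p = 0.048) were higher (median 0.57), while ATP6V0A1 (0.56 ± 0.3, adjusted p = 0.15) and TCIRG1 (-0.08 ± 0.3, adjusted p = 0.85) did not pass. No gene of these lists was called for the change in enrichment. In IP, 1 of 2 oxidase genes, 1 of 3 in biogenesis control, 2 of 5 membrane, 1 of 5 sorting, 5 of 10 hydrolase and 2 of 4 pump genes were called higher in KD, and none lower. Over all regions 20.9% were called higher and 20.1% lower in IP, and some of these counts, such as 1 of 5, are near that share. CTSH, a cathepsin level with NC in input (-0.01 ± 0.18), was among the called ones in IP (0.94 ± 0.16, adjusted p = 4.7e-05).

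For each gene the regions most like it over the 12 libraries were found by Pearson's r of log2 CPM. The libraries fall into 4 groups, so r mostly follows the group means and is a description. Nearest to CYBA were CSF1 (r = 0.932), BCL2L1 (0.922) and SPHK1 (0.921). Among the nearest to CYBB were TPM4 (0.948) and CCND1 (0.943), and nearest to TFEB were FERMT3 (0.986), OSGIN2 (0.982) and ZBTB7A (0.98). LAPTM5 was nearest to PABPC4 (0.98), PPP1R15A (0.979) and PPT1 (0.977), and M6PR to KMT2B (0.947), HYOU1 (0.945) and MAN1A2 (0.941). CPVL was nearest to CBY1 (0.967), CLSPN (0.961) and PPP2R2D (0.956).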

How the data were processed

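The deposited file lists 9958 peaks. The submitters' processing notes name fastp 0.23.4 and GRCh38; the aligner and the programs behind peaks and counts are not given in the sources used here. For every peak it holds deposited counts, not normalized, of the 12 libraries. Per the file headers, the table also holds a fold enrichment of the peak call, which is a ratio, p-values and adjusted p-values of the calls, and a log2 change in enrichment with its p-values. The authors' deposited score equals the fold, and the deposited length is in bases. Peaks are named for KD or NC, so calls were given per group, and how replicates were joined was not stated.

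Peaks were assigned to RefSeq gene bodies (GRCh38.p14) by any overlap; coordinates count from 1, and exons were not used here. Gene strands came from the RefSeq promoter table. Counts were fitted with edgeR 4.0.16 (R 4.3.3): 5113 regions passed filterByExpr with a minimum count of 10 and a minimum total of 15, followed by TMM scaling and a two-sided quasi-likelihood F test on 4 group means. P-values were adjusted by Benjamini-Hochberg over all tested regions, with a threshold of 0.05. Intervals of log2 values use the SE and 8 residual degrees of freedom. CPM uses TMM-scaled totals. Overlapping peaks of both sets count reads more than once (492 regions share their coordinates with another). Counting intervals are exact, at 95%, and cover counting error only; no molecular identifiers are described, so reads may repeat a molecule.

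The members and lists were chosen with earlier results of these data known. All member regions were named. From each list up to 4 further genes with the smallest p in input were named, and for each member gene the 3 genes with the highest r, of which 1 is not reported here. A few others were named after their values were seen: CTSD, CTSH, RAC2, CYBC1 and markers. Alternatives were DESeq2 1.42.0, scaling by library size alone, a minimum of 50 reads, no minimum at all, a replicate block, the libraries of a comparison alone, 1 region per overlapping cluster, and leaving out each library. The script was tested on simulated counts. Same-numbered libraries deviated together at r of -0.088 to 0.068, so the numbers were not taken to pair them.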

Additional observations from a re-analysis of the deposited data

Results flagged for a closer look

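The IP and input libraries of CPVL lay apart in opposite directions in the 2 conditions: all KD IP libraries were above all KD input libraries, and all NC IP libraries were below all NC input libraries. The change in enrichment was log2 5.7 ± 1.43 (edgeR, unadjusted p = 0.00029, adjusted p = 0.132 over 5113 regions). It was 5.84 with DESeq2 (adjusted p = 0.0423), and 5.13 to 7.9 without each library in turn with edgeR (adjusted p = 0.119 to 0.215). The groups held 10 reads in KD IP, 1 in KD input, 10 in NC IP and 64 in NC input. The region passed the filter on low counts through NC input alone, so a difference was built into its being tested.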

How the results depend on the processing

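Of 9 tested member regions, 8 were called in KD over NC input, 5 in IP, 4 and 7 in IP over input (KD and NC) and 0 in the change in enrichment. Over all 5113 tested regions the counts were 2035, 2097, 2296, 2389 and 0. The member counts take overlapping regions of CYBA, CYBB and LAPTM5 separately. Those for input and for NC include CPVL, from which nothing is read. Without each library in turn the member counts ranged from 8 to 8, 5 to 5, 3 to 4, 6 to 7 and 0 to 0. With 1 region per overlapping cluster, which leaves 6 member regions, 5 were called in input, and over all regions 1401 in KD and 1504 in NC for IP over input, against 2296 and 2389, as fewer regions were tested. For the change in enrichment DESeq2 called 1 member (CPVL) and 21 regions in all, no filter 45, and the replicate block 16; without 1 library edgeR called 0 to 1. The replicate block changed no member's call (8, 5, 4, 7 and 0), but the pairing is not borne out. CYBA in IP passed with the 6 IP libraries alone (log2 0.35, adjusted p = 0.0449) and with 1 region per cluster (0.4, adjusted p = 0.0462). TFEB lost its IP over input calls as given above. Of 829 values of single member regions under the settings chosen beforehand, 815 stayed on the same side of the threshold, 10 lost a call and 4 gained one, and no called value changed sign. Scaled to the pan-leukocyte reads, called values of KD over NC turned in input in CYBA (-0.09), CYBB (-0.35) and LAPTM5 (-0.23) and in IP in CYBB (-0.04) and LAPTM5 (-0.33); uncalled ones turned in CYBA in IP (-0.72) and in M6PR in input (-0.77) and IP (-0.68). Library size alone moved the split for IP over input to 1462 higher and 835 lower in KD (main 1200 and 1096) and 1597 and 778 in NC (main 1161 and 1228), while called members kept their direction. Depth limits M6PR and CPVL, with 24 to 93 and 1 to 64 reads per group; every setting was run, except that the change in enrichment has no fit on fewer groups.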
